A study of Mus musculus with 9 samples.

Results

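Amino acid transporters of the distal small intestine were followed across 9 mouse expression arrays. The transporters were taken as the probe sets whose platform annotation gives exactly 1 gene symbol, and whose symbol belongs to solute carrier family 1, 3, 6, 7, 36, 38 or 43. This rule found 125 probe sets of 63 genes among 45037 probe sets that are not array controls, on an array whose probe sets name 18193 genes. It uses names only, so it also takes carriers of taurine, creatine and neurotransmitters, and 3 genes on the opposite strand of a transporter gene (Slc6a19os, Slc36a1os and Slc7a6os). The study's title concerns the effect of IgA, the antibody that plasma cells of the gut release into the lumen, on this tissue once Bacteroides thetaiotaomicron lives there. All 3 groups carried this gut bacterium for 10 days and had 3 arrays each. The Rag1 group is named for Rag1, a gene needed to build antibodies and T cell receptors. The BP group is labelled as Rag1 tissue too, and the labels do not spell out BP. The B6 group is wild type. The small intestine had been cut into 16 pieces of equal length, of which numbers 10, 11, 12 and 14 were pooled, so whole gut wall was measured: epithelium, immune cells, muscle and nerve. No label gives age, sex or diet, or says whether the 3 arrays of a group come from separate mice, and the p-values therefore reflect only how these samples vary, which may be technical.

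Absorptive cells take up amino acids from the gut lumen across the brush border and release them to the blood across the basolateral membrane, and each side has its own carriers. Several carriers work as pairs, in which a heavy chain (Slc3a1 at the brush border, Slc3a2 at the basolateral side) brings a light chain of family 7 to the membrane. The ileum is also a place where creatine, taurine and glutamate are taken up, and all cells use further carriers for their own supply of glutamine and other amino acids.

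Values per array are given below as normalized intensity, the brightness of a probe set after the 9 arrays were brought to 1 common distribution. Differences are given on the log2 scale with their standard error, 3 arrays against 3, and a probe set is said to rise or fall only where its adjusted p from limma over all 27022 tested probe sets was under 0.05. The arrays differed in quality. The beta-actin 3'/5' ratio, which is higher where RNA is degraded or copied incompletely, was 1.53, 1.69 and 1.77 in Rag1, 14.2, 2.43 and 20.2 in BP, and 3.25, 1.76 and 4.17 in B6, so it differed between the groups. BP replicates 1 and 3 correlated at 0.936, and BP 2 correlated with them at 0.838 and 0.844, against 0.953 to 0.976 within the other groups. Of 8 enterocyte markers, 1 fell in BP (Epcam), beside 294 of all 13570 genes. The Epcam call was kept under 10 of 22 alternatives, and as the mean of its probe sets Epcam was at -0.31 (adjusted p = 0.428, limma). The summed intensity of the 8 markers ran from 47053 to 53469 in Rag1, 46923 to 47513 in BP and 50973 to 53965 in B6. The summed intensity of 7 T cell markers was 798 to 999 in Rag1, 689 to 925 in BP and 2787 to 3631 in B6, and that of 6 B and plasma cell markers 175 to 191 in Rag1, 189 to 231 in BP and 3199 to 9372 in B6. Of 6 markers of the distal small intestine 5 had positive BP differences, with a median of 0.38, and 1 (Muc2) fell. Of 3 listed red cell markers only Alas2 was tested, and it rose, from 7.30 to 26.6 in Rag1 to 63.6 to 98.0 in BP. The globin gene Hba-a1 was too dim to be tested, with a mean of 4.29, and Hbb-b1 had no probe set annotated to it alone. A change in red cells is therefore not read from Alas2. In pooled gut wall, fewer cells of a type and less RNA per cell cannot be told apart.

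Of the 63 transporter genes, 43 had at least 1 probe set bright enough to be tested, and 20 were bright, with a mean over the 9 arrays at or above percentile 80 of all probe sets. By probe set, 70 of 125 were tested and 32 were bright. The bright genes were the brush border carriers Slc6a19, Slc6a20a, Slc7a9, Slc3a1, Slc1a1 and Slc36a1, the basolateral carriers Slc3a2, Slc7a7, Slc7a8 and Slc43a2, the taurine and creatine carriers Slc6a6 and Slc6a8, the supply carriers Slc1a5, Slc38a1, Slc38a2, Slc38a10 and Slc7a1, and Slc6a4, Slc6a7 and Slc7a15. Just inside the brightness limit lay a second probe set of Slc38a10, at percentile 80.8, and just outside it a second probe set of Slc38a1, at percentile 79.8. Brightness depends on the probes as well as on the transcript, so no order of transcript amounts between genes is given.

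**Figure D1:**
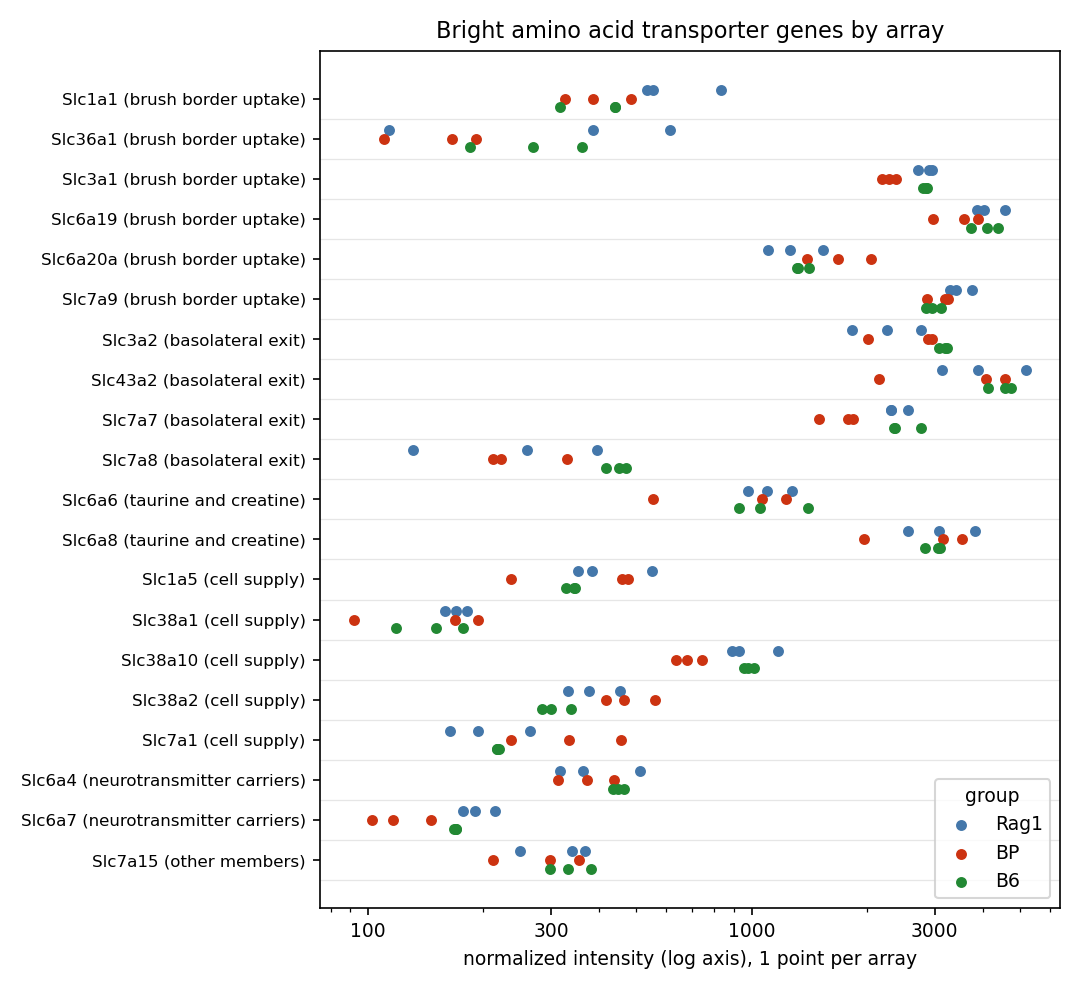
Normalized intensity (horizontal log axis) of the brightest probe set of the 20 bright transporter genes, 1 point per array, with Rag1 in blue, BP in red and B6 in green. All 3 groups overlap in 9 of the 20 genes, and in 11 at least 1 pair of groups does not. The share of all probe sets with at least 1 such pair was not computed, so nothing is read from the 11. The shares that follow are for single comparisons and cannot be set beside it. Of all tested probe sets, 17.7% did not overlap in B6 against Rag1. In BP against Rag1 14.2% lay below and 9.33% above, and in B6 against BP 11.3% lay above and 7.33% below. The 3 BP points lie below the 3 Rag1 points for Slc1a1, Slc3a1, Slc7a9, Slc7a7, Slc38a10 and Slc6a7.

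No transporter gene differed between B6 and Rag1 past the threshold, which 0.329% of all tested probe sets passed. In BP, 1 probe set each of Slc6a8, Slc1a1, Slc6a6, Slc7a7 and Slc1a2 fell against Rag1 and none rose, and in B6 against BP the Slc6a6 probe set rose. For Slc6a8, Slc1a1, Slc6a6 and Slc7a7 the probe set that fell was a dimmer one, and the brightest probe set of the same gene did not pass. With 1 probe set per gene, the brightest tested, the only call among 43 genes in the 3 comparisons was Slc1a2 in BP against Rag1. That probe set is dim and was bright enough to be tested only through its Rag1 and B6 values. By gene, 294 of 13570 were lower and 149 higher in BP against Rag1. With the mean over all tested probe sets of a gene, Slc1a2 did not pass and Slc1a1 and Slc7a7 did, at -1.17 (adjusted p = 0.0227) and -1.72 (adjusted p = 0.0182). Both means include the dimmer probe set that was called, and for Slc7a7 the 2 probe sets stood at -2.96 and -0.49. The share of all genes passing on that mean was not counted, so these calls have no background beside them.

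The 5 calls made up 7.14% of the 70 tested transporter probe sets. Of all tested probe sets, 3.80% were called in either direction in BP and 2.70% were lower. At an unadjusted p under 0.05 the transporter probe sets numbered 13 (18.6%), of which 12 were lower, beside 20.0% of all tested probe sets in either direction and 12.4% lower. The median difference over the 43 genes was -0.15, beside -0.05 over all tested probe sets, with 30 genes negative and 13 positive. All 3 BP arrays lay below all 3 Rag1 arrays in 16 of 70 transporter probe sets and in 14.2% of all, and above them in 1 of 70 and 9.33% of all. Without BP 1 and BP 3, the arrays with the highest actin ratios, BP 2 alone is left and must be assumed to vary like the other arrays. The numbers of calls in that fit are listed with the alternatives, and no conclusion is drawn from them. Differences on BP 2 are given below.

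Slc6a8 carries creatine into cells. Its called probe set, 1448596_at, read 2749.9, 3268 and 2485 in Rag1, 1496, 1427 and 1488 in BP and 2284, 2361 and 1992 in B6, and the difference BP minus Rag1 was -0.93 ± 0.14 (adjusted p = 0.0108). All BP arrays lay below all others. B6 lay between the other groups with no overlap, -0.35 ± 0.14 (adjusted p = 0.798) against Rag1. The brightest probe set, 1417116_at, read 3078, 3816 and 2555 in Rag1, 3159, 1966 and 3541 in BP and 3104, 3065 and 2835 in B6. Here BP 2 was the lowest array of all, BP 1 and BP 3 lay within the Rag1 range, and the difference was -0.15 ± 0.21 (adjusted p = 0.765). Smooth muscle also uses creatine, and of 7 smooth muscle markers 2 fell in BP (Myh11 and Des), with summed intensities of 10105 to 11902 in Rag1 and 9349 to 12163 in BP. The Des call was kept under 5 of 22 alternatives, and Myh11 was at -0.63 (adjusted p = 0.167) as the mean of its probe sets. Their part in the result was not tested.

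Slc6a6 carries taurine, which the liver joins to bile acids. The called probe set, 1421346_a_at, read 314, 304 and 329 in Rag1, 112, 90.1 and 129 in BP and 242, 437 and 257 in B6. BP was below every array of the other groups, at -1.40 ± 0.25 (adjusted p = 0.0169) against Rag1. B6 exceeded BP by 1.34 ± 0.25 (adjusted p = 0.0393), the only transporter call in that comparison. The brightest probe set, 1437149_at, read 978, 1096 and 1275 in Rag1, 553, 1229.6 and 1063 in BP and 1052, 1400.3 and 925 in B6. On it BP 1 alone was low, the groups overlapped and the difference BP minus Rag1 was -0.30 ± 0.27 (adjusted p = 0.608).

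Slc1a1 takes up glutamate and aspartate at the brush border. Its called probe set, 1460386_a_at, is dim and read 135, 99.1 and 182 in Rag1, 23.8, 29.3 and 22.2 in BP and 32.9, 99.8 and 51.5 in B6. BP was below all Rag1 and B6 arrays, at -1.88 ± 0.33 (adjusted p = 0.0163) against Rag1. The brightest probe set, 1448299_at, read 534, 554 and 831 in Rag1, 486, 327 and 385 in BP and 441, 317 and 440.1 in B6. The BP and the B6 arrays all lay below the Rag1 arrays on it, with BP minus Rag1 at -0.65 ± 0.24 (adjusted p = 0.153) and B6 minus Rag1 at -0.64 ± 0.24 (adjusted p = 0.696). The remaining probe set of the gene, 1425415_a_at, had the same sign, at -0.97 ± 0.31 (adjusted p = 0.108) for BP and -0.65 ± 0.31 (adjusted p = 0.925) for B6.

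Slc7a7 is the light chain that, with Slc3a2, releases cationic amino acids such as arginine and lysine to the blood. Its called probe set, 1447181_s_at, read 908, 773 and 722 in Rag1, 72.6, 287 and 26.3 in BP and 339.6, 915 and 332 in B6. BP 1 and BP 3 were the lowest arrays and BP 2 came next, and the difference BP minus Rag1 was -2.96 ± 0.59 (adjusted p = 0.0245). B6 1 and B6 3 also lay far below B6 2. The brightest probe set, 1417392_a_at, read 2306, 2549 and 2312 in Rag1, 1786, 1495 and 1836 in BP and 2355, 2757 and 2361 in B6. BP was again below all other arrays, but by less, -0.49 ± 0.14 (adjusted p = 0.0743), and B6 exceeded BP by 0.54 ± 0.14 (adjusted p = 0.112).

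**Figure D2:**
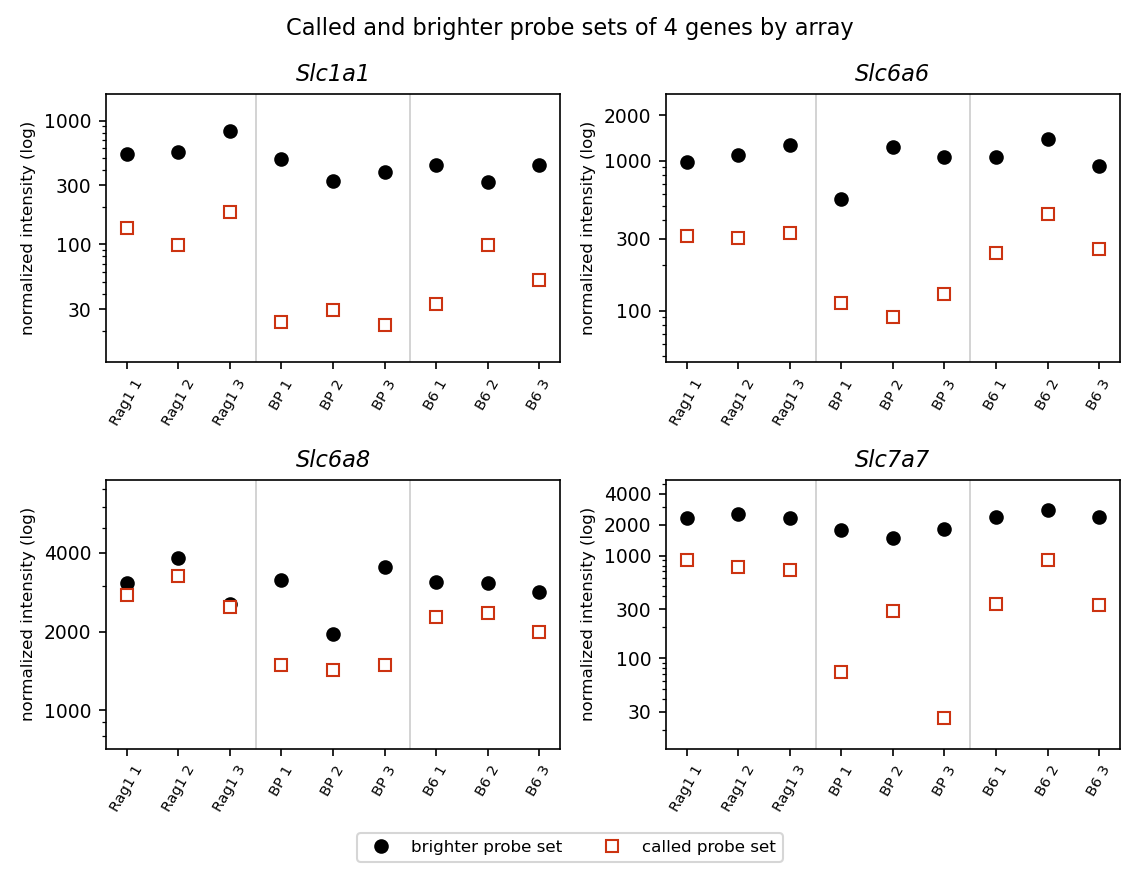
Normalized intensity (vertical log axis) on each of the 9 arrays of the called probe set (open squares) and the brightest probe set (filled circles) of Slc1a1, Slc6a6, Slc6a8 and Slc7a7. On average the squares drop in BP more than the circles do, most in Slc7a7, where they read 72.6, 287 and 26.3. The squares were picked for a call in BP that the circles lack, so this was largely fixed by the choice.

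The dimmer probe set as a share of the brightest one was set beside the actin ratio, a comparison chosen after its values were seen. For Slc7a7 the share was 39.4%, 30.3% and 31.2% in Rag1, 4.06%, 19.2% and 1.43% in BP, and 14.4%, 33.2% and 14.0% in B6. The 5 arrays with the highest actin ratio (BP 1, BP 2, BP 3, B6 1 and B6 3) had the 5 lowest shares for Slc7a7, Slc6a8 and Slc1a1, and 4 of the 5 lowest for Slc6a6. The Slc6a6 share did not follow the ratio among the BP arrays, at 20.2%, 7.33% and 12.1%, and was lowest on BP 2. Those 5 arrays include all 3 BP arrays, so group and ratio overlap. The genes were also picked because the dimmer probe set fell in BP and the brightest one did not pass. Low shares on the BP arrays were thus largely fixed by that choice. On BP 2, the BP array with the lowest ratio, the called probe sets differed from the Rag1 mean by -1.42 (Slc7a7), -0.97 (Slc6a8), -1.64 (Slc6a6) and -1.74 (Slc1a1). BP 2 is part of the BP mean for which these probe sets were picked, so its low values are no separate evidence. With the actin ratio as a covariate the difference BP minus Rag1 was -0.77 (adjusted p = 0.109) for the Slc7a7 probe set, -1.48 (adjusted p = 0.0448) for Slc1a1, -1.48 (adjusted p = 0.0113) for Slc6a6 and -0.92 (adjusted p = 0.00722) for Slc6a8, all by limma. In that fit 15.7% of the transporter probe sets passed, beside 15.5% of all tested probe sets. The same arrays had picked these 4 probe sets, so these p-values are no separate evidence either. The place of each probe set along its transcript was not used here.

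**Figure D3:**
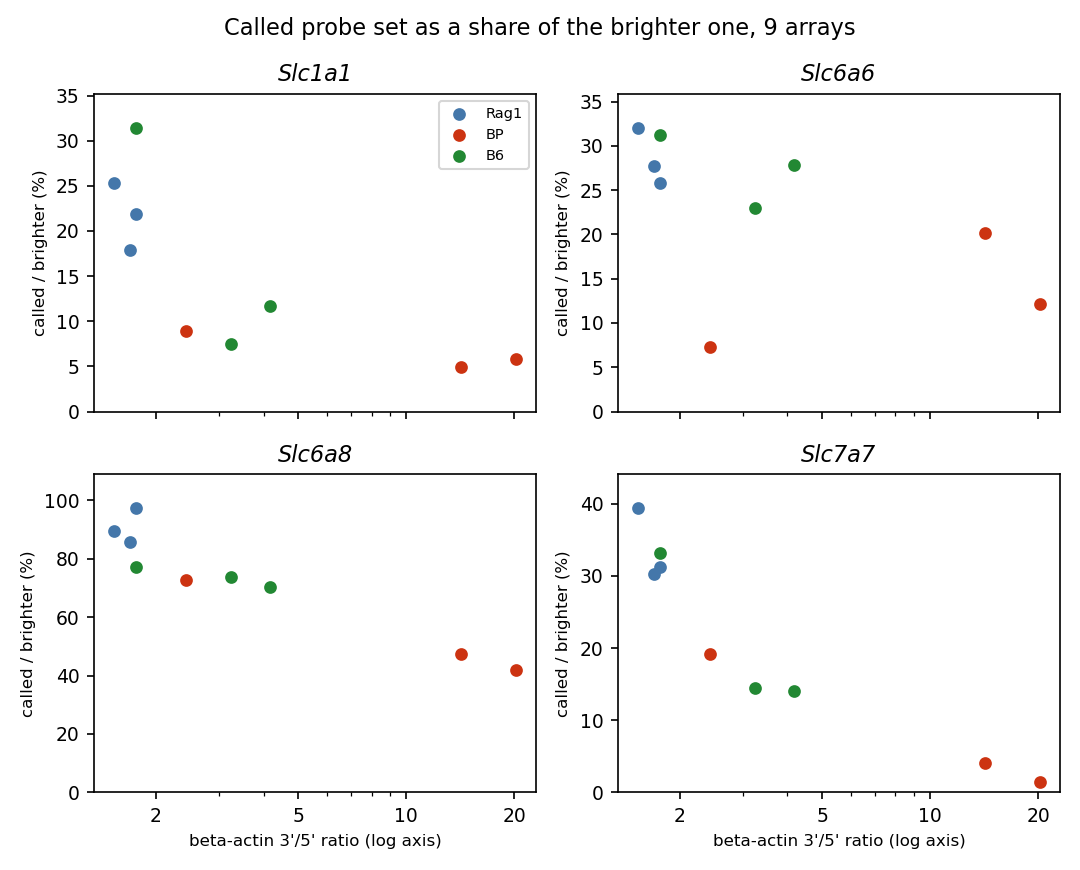
Intensity of the called probe set as a percentage of the brightest probe set (vertical axis) against the beta-actin 3'/5' ratio (horizontal log axis) for 4 genes, 1 point per array, coloured by group. The lowest shares of Slc7a7, 4.06% and 1.43%, belong to BP 1 and BP 3, which have the highest ratios. The called probe sets were picked for a fall in BP, so low BP shares were largely fixed by the choice.

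Without Rag1 1 or without Rag1 2 none of the 6 transporter calls was kept, and without Rag1 3 only the Slc6a8 probe set was, at -1.02 (adjusted p = 0.0335), while the calls among all tested probe sets for BP minus Rag1 went from 1027 to 18, 23 and 212. Without BP 2 the transporter calls in BP numbered 11 (15.7%), of which 9 were lower, beside 19.5% of all tested probe sets in either direction. The share of all that were lower was not counted for that fit. With all arrays, 729 of the 1027 calls were lower. Without BP 1 they numbered 3 (4.29%, beside 2.22% of all), and without BP 3 they numbered 2 (2.86%, beside 0.829%). The Slc6a6 call in B6 against BP was lost without Rag1 1, Rag1 2, Rag1 3, BP 1, BP 3 or any of the B6 arrays.

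The other brush border carriers had no call. Slc6a19, the main sodium-coupled uptake carrier of neutral amino acids, read 4031, 4573 and 3867 in Rag1, 2978, 3883 and 3566 in BP and 4114, 4381 and 3736 in B6. The 3 groups overlapped, with BP minus Rag1 at -0.26 ± 0.13 (adjusted p = 0.304). Slc6a20a, which takes up proline and related imino acids, read 1262, 1100.4 and 1531 in Rag1, 1398, 2053 and 1683 in BP and 1318, 1414 and 1312 in B6. It was the brush border gene with a positive BP difference, 0.39 ± 0.18 (adjusted p = 0.25), and its groups overlapped.

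Slc3a1 and Slc7a9 form the brush border pair for cystine and cationic amino acids, whose human counterparts are mutated in cystinuria. Slc3a1 read 2717, 2951 and 2903 in Rag1, 2284, 2188 and 2382 in BP and 2873, 2794 and 2839 in B6. BP lay below both other groups without overlap, at -0.32 ± 0.11 (adjusted p = 0.143) against Rag1, and B6 minus BP was 0.31 ± 0.11 (adjusted p = 0.232). Slc7a9 read 3399, 3295 and 3756 in Rag1, 3197, 2865 and 3256 in BP and 2839, 2955 and 3113 in B6. For this light chain both BP and B6 lay below Rag1, at -0.16 ± 0.12 (adjusted p = 0.488) and -0.23 ± 0.12 (adjusted p = 0.967). Slc36a1, a proton-coupled carrier of small amino acids, was uneven within groups, at 386, 611 and 114 in Rag1, 166, 110.4 and 191 in BP and 269.8, 361 and 184 in B6. Rag1 3 was far below the other Rag1 arrays, and BP minus Rag1 was -0.93 ± 0.48 (adjusted p = 0.313).

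On the basolateral side the 5 tested genes all had positive differences B6 minus Rag1, with a median of 0.17 and 0 calls, and all were positive too with median centring and with the values as deposited. As the mean of its probe sets Slc7a7 was negative, at -0.34 (adjusted p = 0.999). Rag1 3 was the lowest Rag1 array for Slc3a2, Slc7a8, Slc43a2 and Slc43a1, and the signs without it are not given here. Over all 43 tested transporter genes 14 differences B6 minus Rag1 were positive and 29 negative. Slc3a2, the heavy chain, read 2253, 2766 and 1826 in Rag1, 2880.4, 2016 and 2955 in BP and 3230.1, 3191 and 3085 in B6. All B6 arrays lay above all Rag1 arrays, by 0.49 ± 0.18 (adjusted p = 0.707). Slc7a8, its light chain partner for neutral amino acids, read 259.9, 396 and 131 in Rag1, 222, 212 and 331 in BP and 451, 472 and 417 in B6. The B6 arrays were the 3 highest, by 0.85 ± 0.33 (adjusted p = 0.738) against Rag1 and 0.80 ± 0.33 (adjusted p = 0.293) against BP. Slc3a2 is also made by dividing lymphocytes, and B6 had the higher lymphocyte markers given above, whose part in this difference was not tested. Slc43a2, a carrier of branched-chain and aromatic amino acids, read 3886, 5193 and 3127 in Rag1, 4084, 2148 and 4567 in BP and 4755, 4567 and 4128 in B6, with BP 2 the lowest array and the groups overlapping. Its relative Slc43a1 was dim, between 18.9 and 63.7.

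**Figure D4:**
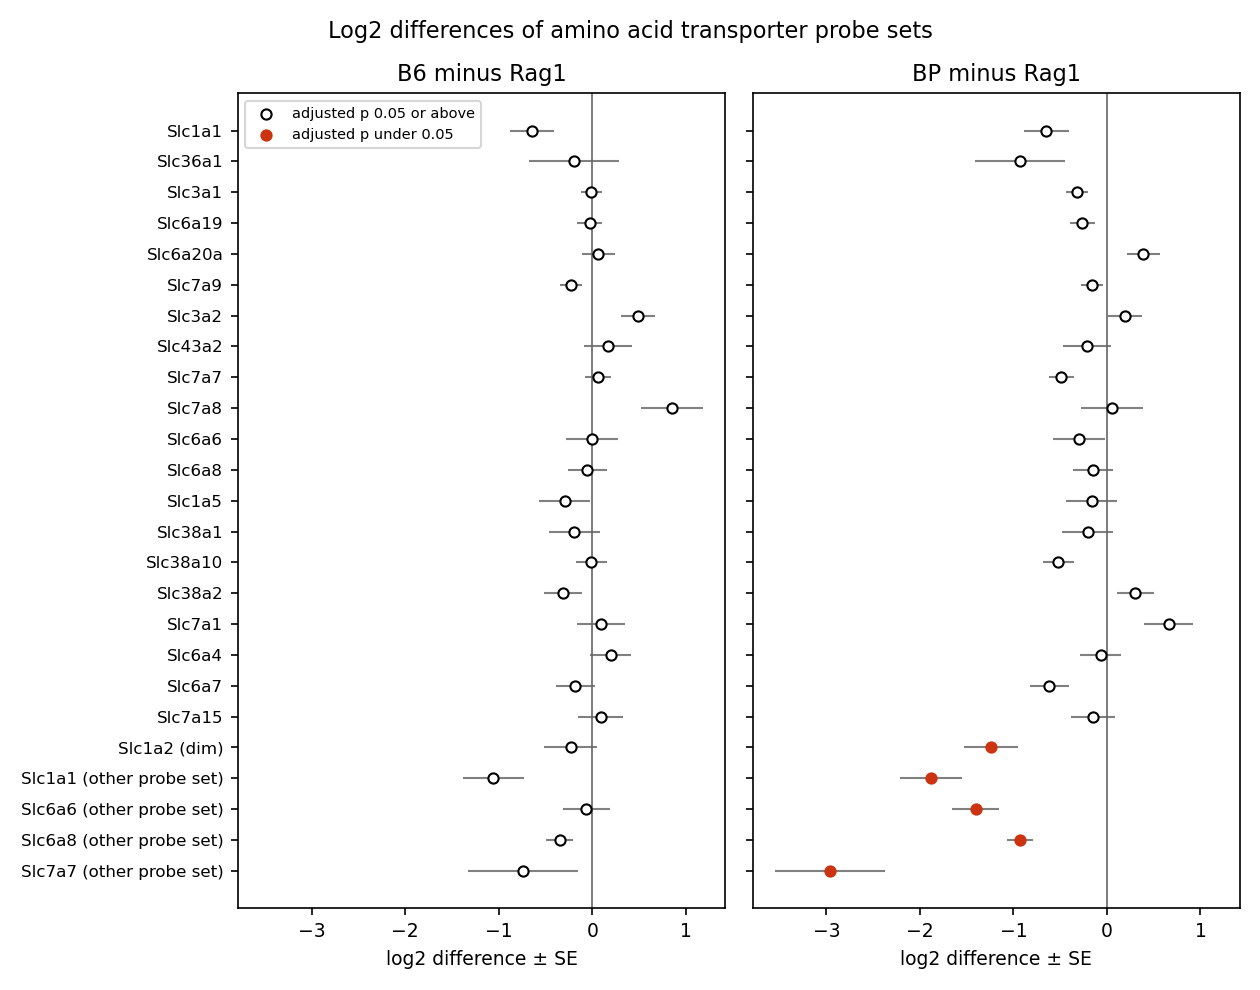
Log2 difference with its standard error for the brightest probe set of the bright transporter genes, for Slc1a2, and for the other probe sets that were called, B6 minus Rag1 on the left and BP minus Rag1 on the right. Filled red points have an adjusted p under 0.05. There are none on the left and 5 on the right, the lowest at -2.96 for Slc7a7.

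In B6 against Rag1, 0 of 70 transporter probe sets passed in limma, 5 (7.14%) had an unadjusted p under 0.05, beside 5.56% of all tested probe sets, and 2 (2.86%) passed when arrays were weighted by quality, beside 3.89% of all. The smallest adjusted p of a transporter was 0.506, for the dim Slc1a1 probe set 1460386_a_at. The B6 and Rag1 arrays did not overlap in 16 of 70 transporter probe sets, with B6 above in 5 and below in 11, beside 17.7% of all tested probe sets (2432 above and 2352 below). The median difference over the 43 genes was -0.10, beside -0.01 over all tested probe sets, and the 95% interval of the difference held 0 for 17 of the 20 bright genes.

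In B6 against BP, 1 of 70 transporter probe sets was higher and 0 were lower. Of all tested probe sets 0.633% were called and 0.574% were higher. An unadjusted p under 0.05 was found in 12 transporter probe sets (17.1%) and in 14.6% of all. The B6 arrays lay above the BP arrays in 14 of 70 and below them in 3, beside 11.3% and 7.33% of all. The median over the 43 genes was 0.10 and over the 20 bright genes 0.25, beside 0.05 over all bright probe sets. The comparisons share arrays: Rag1 serves as the base of 2 of them and BP enters 2, so their differences are not independent.

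Among the carriers for a cell's own supply, Slc38a2, a glutamine carrier that amino acid shortage is known to induce, read 377, 332 and 455 in Rag1, 466, 562 and 417 in BP and 284, 299.8 and 339 in B6. B6 was below BP without overlap, at -0.61 ± 0.20 (adjusted p = 0.186), and its next probe set gave -0.69 ± 0.24 (adjusted p = 0.214). Slc7a1, which carries arginine and lysine, read 193, 265 and 164 in Rag1, 236, 456 and 335 in BP and 218, 218 and 220.4 in B6. BP minus Rag1 was 0.66 ± 0.26 (adjusted p = 0.181) on this probe set and 0.02 ± 0.26 (adjusted p = 0.977) on the dimmer one, and the difference between the probe sets was not tested. Slc38a10 read 891, 1172 and 925 in Rag1, 636, 677 and 743 in BP and 954, 977 and 1017 in B6. BP was the lowest group there, at -0.52 ± 0.16 (adjusted p = 0.102), but its 7 tested probe sets ran from -0.52 to 0.49. Slc1a5, the exchanger that brings in glutamine, read 384, 353 and 549 in Rag1, 459, 237 and 477 in BP and 346, 345 and 329 in B6. Its B6 arrays lay below the Rag1 arrays without overlap, at -0.30 ± 0.27 (adjusted p = 0.999). Slc38a1, another glutamine carrier, ran from 92.1 to 194 over all arrays, and its groups overlapped. Slc7a5, the leucine carrier of dividing cells, was dim, between 11.1 and 52.5, and so was Slc7a11, which brings in cystine for glutathione, between 10.3 and 45.9 on its brightest probe set.

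Of the neurotransmitter carriers, Slc6a4, which clears serotonin and is made by enterocytes as well as nerve, read 364, 513 and 316 in Rag1, 438, 314 and 372 in BP and 449, 464 and 435 in B6, and the groups overlapped. Slc6a7, a proline carrier known from brain, read 177, 215 and 191 in Rag1, 146, 103 and 116 in BP and 169, 169.8 and 167 in B6. BP was the lowest group without overlap, -0.62 ± 0.21 (adjusted p = 0.123) against Rag1. Slc1a2, a glutamate carrier of glia, read 35.5, 62.6 and 30.6 in Rag1, 9.80, 7.35 and 7.74 in BP and 34.8, 41.7 and 23.9 in B6. The BP arrays were the 3 lowest and the difference was -1.24 ± 0.29 (adjusted p = 0.038), while another probe set of the gene, 1433094_at, gave 0.62 ± 0.33 (adjusted p = 0.321). The called probe set had a mean of 24.8, just above the test limit of 23.5, and its BP arrays lay under that limit. It was therefore tested only through its Rag1 and B6 values. The call was kept under 6 of 21 alternatives, and with no filter its adjusted p in limma was 0.0542. The difference was -1.17 (adjusted p = 0.113) with the actin ratio as a covariate and -0.31 (adjusted p = 0.584) as the mean of the gene's probe sets. Of 7 tested nerve and glia markers none was called in BP, and their summed intensity was 739 to 822 in Rag1 and 536 to 835 in BP. Slc7a15, a light chain found in rodents, read 367, 340.0 and 249 in Rag1, 356, 298 and 211 in BP and 333, 381 and 299 in B6, with the groups overlapping.

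The 55 untested transporter probe sets stayed at or below 59.2 on every array, and 20 genes had no other kind. Among them was Slc6a14, a broad carrier of neutral and cationic amino acids known from colon and lung, which did not exceed 28.1. A further 23 genes were tested but not bright. Several genes were measured more than once: of 19 genes with more than 1 tested probe set, the sign differed between probe sets in 9 for B6 minus Rag1 and in 6 for each of the other comparisons.

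Over the 70 tested transporter probe sets the median standard deviation on the log2 scale was 0.23 in Rag1, 0.37 in BP and 0.24 in B6, beside 0.21, 0.44 and 0.23 over all tested probe sets. Over the 20 bright genes the median ratio of the highest to the lowest array was 1.43 in Rag1, 1.48 in BP and 1.11 in B6. Within Rag1, 10 of the 20 bright genes were lowest on replicate 3, and 8 of these were highest on replicate 2, among them Slc3a2, Slc43a2, Slc7a8 and Slc36a1. Another 6, including Slc1a1, were highest on replicate 3. Fabp6, the bile acid binding protein of ileal enterocytes, was also highest on replicate 3 and lowest on replicate 2, at 6167, 2352 and 10458 in Rag1 1, 2 and 3. Whether the pieces sampled differed along the gut was not tested.

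Genes that work with these carriers were described from 5 lists. Of 13 tested carriers from other families, 1 fell in BP: Ctns, which exports cystine from lysosomes, read 115, 127 and 120.2 in Rag1, 58.0, 22.6 and 37.2 in BP and 102, 79.9 and 114 in B6, a difference of -1.36 ± 0.27 (adjusted p = 0.0243). The peptide carrier Slc15a1 read 3228, 3381 and 2638 in Rag1, 2319, 3301 and 3082 in BP and 3350.0, 3498 and 3701 in B6. B6 lay above BP without overlap there. The aromatic amino acid carrier Slc16a10 read 1143, 1342 and 709 in Rag1, 1475, 945 and 1342 in BP and 1487, 1153 and 1348 in B6, and its groups overlapped. None of 11 carrier partners and brush border peptidases was called, with medians of -0.26 for BP minus Rag1 and -0.07 for B6 minus Rag1.

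Amino acid shortage is known to act through the factor ATF4, which switches on carriers and synthesis enzymes. By gene, 149 of 13570 rose and 294 fell in BP against Rag1, the background for the list counts. Of 30 targets of this response 2 rose in BP and 0 fell: Phgdh, the entry enzyme of serine synthesis, by 1.54 ± 0.28 (adjusted p = 0.018), and the factor Cebpb, by 1.03 ± 0.22 (adjusted p = 0.0308). The median over the list was -0.0021, with 15 genes positive and 15 negative, and Asns, a standard target, gave -0.15 ± 0.22 (adjusted p = 0.766). Atf4 itself was at -0.70 ± 0.18 (adjusted p = 0.0545). As means over their tested probe sets, Atf4 was at -0.10 (adjusted p = 0.770) and Asns at 0.10 (adjusted p = 0.867). Of 23 genes that sense amino acids for mTORC1, Lamtor1 rose, by 1.09 ± 0.22 (adjusted p = 0.0245). Of 25 enzymes of amino acid metabolism, the proline synthesis enzyme Aldh18a1 rose in BP, by 1.01 ± 0.20 (adjusted p = 0.0228), and the tryptophan-degrading Ido1 fell, at -1.05 ± 0.26 (adjusted p = 0.0478). Ido1 was 2.13 ± 0.26 (adjusted p = 0.00297) in B6 against BP, the only call of the 5 lists there, and B6 against Rag1 had 0 calls in all 5. The lymphocyte markers that were higher in B6 were given above, and their part in the Ido1 difference was not tested. The Ido1 call in B6 against BP was kept under 22 of 22 alternatives. Of the list genes called in BP against Rag1, none was kept without Rag1 1 or Rag1 2, Phgdh alone was kept without Rag1 3, and Lamtor1 alone without BP 3. As means over a gene's tested probe sets, the BP differences of Cebpb, Lamtor1 and Aldh18a1 did not pass, at 0.19 (adjusted p = 0.623), 0.33 (adjusted p = 0.283) and 0.31 (adjusted p = 0.368). With the actin ratio as a covariate Aldh18a1 was at 0.75 (adjusted p = 0.0526).

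The core of the amino acid response element, TGATGNAA, was searched on both strands in the RefSeq promoter windows of GRCm38.p6, from 250 bases before to 50 after each start. It was in 5 of 67 windows of the transporter genes (7.46%) and in 3.97% of all 32851 windows. By gene it was in 4 of the 46 transporter genes with a window, and the share by gene over all was not counted. Of 15 bright genes with a window only Slc7a7 held it, in 2 of 5 windows. These 2 overlap and share 1 TGATGCAA match, which is therefore counted in both. Slc7a7 is shown because it is the bright gene with the match, and Slc7a11, at chr3:50443564-50443863 on the minus strand, because it is a textbook target of ATF4 and is dim here. The Slc7a7 window is chr14:54417895-54418194, minus strand. Capitals mark the matches, 2 in each window, and a match is a description of letters only.
Slc7a7: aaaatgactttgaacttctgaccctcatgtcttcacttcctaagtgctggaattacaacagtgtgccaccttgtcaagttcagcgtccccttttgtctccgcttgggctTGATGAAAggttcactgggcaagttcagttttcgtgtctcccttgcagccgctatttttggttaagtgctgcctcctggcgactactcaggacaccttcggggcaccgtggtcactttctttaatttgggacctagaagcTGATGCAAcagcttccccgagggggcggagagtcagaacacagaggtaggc
Slc7a11: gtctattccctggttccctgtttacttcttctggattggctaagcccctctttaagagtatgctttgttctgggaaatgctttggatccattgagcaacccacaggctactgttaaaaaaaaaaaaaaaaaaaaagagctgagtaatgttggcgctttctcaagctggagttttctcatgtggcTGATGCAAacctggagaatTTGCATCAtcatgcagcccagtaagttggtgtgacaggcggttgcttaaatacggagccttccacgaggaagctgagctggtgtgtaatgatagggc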

How the data were processed

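The deposited intensity of 45101 probe sets on 9 Affymetrix arrays was analysed. The labels' protocols give 20 µg of total RNA as input for the biotinylated cRNA. The software and scaling the authors used are not given in the sources used here. Quantile normalization of log2(intensity + 16) was done over all 45101 probe sets, and the 64 control probe sets were then left out. The lowest 40% by mean were not tested, which kept 27022. Fold changes are on this scale and understate those of dim genes. The number of arrays limits the precision. Tests used limma (version 3.58.1, R version 4.3.3), with 1 mean per group, all 9 arrays, an intensity trend and two-sided tests, adjusted by Benjamini-Hochberg over all tested probe sets at 0.05. The fit was tested on simulated data. Groups and replicate numbers came from the titles.

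A gene stands by its brightest tested probe set. Named were the bright genes, genes with a call, the 4 with the smallest p per comparison and a set of known carriers, and from 5 pathway lists the called genes and a few fixed ones. The transporters, the lists and this rule were chosen with earlier results of these data known. Fabp6 and the probe set shares were picked once their values had been seen. Symbols came from the platform annotation.

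Alternatives were median centring, the values as deposited, pseudocounts 1 and 64, no filter, the lowest 60% left out, a fit of only the compared groups, no trend, a replicate block, array weights, the actin ratio as a covariate, the mean of a gene's probe sets, and leaving out arrays.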

Additional observations from a re-analysis of the deposited data

How the results depend on the processing

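The transporter probe sets called numbered 0 in B6 against Rag1, 5 in BP against Rag1 and 1 in B6 against BP. These were 0%, 7.14% and 1.43% of 70, beside 0.329%, 3.80% and 0.633% of all tested probe sets. B6 against BP gave 3 with median centring (4.29%, beside 1.85% of all). It gave 0 with the values as deposited, with only the groups compared or with no intensity trend. BP against Rag1 gave 3 with only the groups compared (4.29%, beside 0.677% of all). Array weights gave 2, 9 and 2 in the order above (2.86%, 12.9% and 2.86% of 70), beside 3.89%, 14.9% and 3.17% of all tested probe sets. With the actin ratio as a covariate BP against Rag1 gave 11 (15.7%, beside 15.5% of all) and B6 against BP 9 (12.9%, beside 12.9%). Without BP 1 and BP 3 together they gave 18 (25.7%, beside 5936 of all 27022) and 13 (18.6%, beside 20.9%). That fit leaves BP 2 as the only BP array, so its spread within BP cannot be measured and no conclusion is drawn from its calls. Leaving out 1 array gave 0 to 11 for BP against Rag1 and 0 to 6 for B6 against BP. The 11 (15.7%, beside 19.5% of all) and the 6 (8.57%, beside 11.2%) came without BP 2. The cause of these changes was not tested.

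With a replicate block, B6 against BP gave 0, BP against Rag1 4 (5.71%, beside 2.96% of all) and B6 against Rag1 0. Deviations of arrays with the same number correlated at -0.19 to 0.23, so the numbers were not taken to pair the samples. Of 126 alternative values of the 6 calls, 83 kept the call, 43 lost it and 0 changed sign. Of 1698 values of 78 differences with no call, 103 changed sign and 43 passed the threshold. The values as deposited moved the median of all tested probe sets in B6 against Rag1 from -0.01 to -0.12.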
